A study of Mus musculus with 4 samples.

Results

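The 41 genes described here are interferon-stimulated genes, listed by name, with earlier results of these data known. Of the 32285 genes in the feature table, 39 carried a member symbol, and Mx1 and Mx2 were not analysed here. CPM is counts per 1000000: a gene's UMIs as a share of all gene UMIs of a cell class. Every one of the 39 reached 10 CPM in at least 1 class of 50 cells or more. None was thus left out of the levels by class, but the comparisons below tested only 37 or 38 of them. UMIs count captured transcript molecules, so CPM was not divided by gene length.

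The dissected tissue was collecting lymphatic vessels, whose muscle wall drives lymph by contracting, with adjoining tissue. The donors were 4 male and 4 female C57BL/6J mice, 12 to 14 weeks old, with no transgene and no treatment in the labels. Vessels of 4 anatomical regions were combined per mouse, dissociated with papain, collagenase and dispase, tagged by mouse and captured with 1 gene expression library per sex. The deposited matrix held 24046 barcodes with a median of 8684.5 gene UMIs, and barcodes carried a suffix from 1 to 8 that no label ties to a mouse or a sex.

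The cells were therefore treated as 1 pooled sample, with no test between groups and no p-value. Intervals are 95% intervals for counting error only, and suffixes are given as unlabelled samples by their lowest, median and highest value. After filtering and removal of called doublets, 22947 cells fell into 39 clusters, of which 34 were named from markers as "X-like" classes. The 5 unnamed clusters had 1479 cells, 36.2% of them high by the cut used below. The smallest and largest suffix had 2375 and 3315 barcodes, and totals per suffix ran from 23828933 to 32467001 gene UMIs. No barcode was shared among suffixes 1 to 4 or among suffixes 5 to 8, and 44 were shared across those sets, which are called capture sets below. As a gauge of free RNA, the complement genes C1qa, C1qb and C1qc stood in fibroblast-like cells at 0.793% to 0.913% of their macrophage-like level. In endothelial-like cells they stood at 1.16% to 1.5%.

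Interferons are secreted proteins that warn cells of infection. Type I interferons signal through IFNAR1 and IFNAR2 and the kinases JAK1 and TYK2 to transcription factors that include STAT2 and IRF9, whereas interferon gamma acts through its own receptor. Type I signalling acts on a promoter element, the interferon-stimulated response element, and switches on genes whose products block viral RNA, degrade it, tag proteins or attract lymphocytes. Many of these genes also have a basal level in cells at rest, and tissue macrophages are known for a high one.

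The promoters show what many of the genes share in sequence. RefSeq promoters on GRCm38.p6, each from 250 bases before to 50 bases after a gene's start, were matched by symbol to 32 of the 39 genes. The core of the response element, GAAA, any 2 bases and GAAA again, was searched on both strands (on the other strand TTTC, any 2 bases and TTTC), and overlapping matches were allowed. It was found for 19 of the 32 genes (59.4%), against 1079 of 27025 genes with a promoter entry (3.99%). Among genes more than 2-fold higher in macrophage-like cells than in each of the 3 other tissue classes described below, 8 of 13 held it, and among the rest 11 of 19 did. The windows below are those of genes on which the results turn, read 5′ to 3′ on the gene's strand, with matches in capitals. Each lies upstream of the RefSeq start and overlaps no exon of GENCODE release M21.
Ifit1, chr19:34640760-34640838 (+): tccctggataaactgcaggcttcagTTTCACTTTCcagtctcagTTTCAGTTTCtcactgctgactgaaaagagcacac
Ifit3, chr19:34583348-34583441 (+): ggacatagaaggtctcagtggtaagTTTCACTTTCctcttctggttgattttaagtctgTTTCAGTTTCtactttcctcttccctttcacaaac
Isg15, chr4:156200850-156200921 (-): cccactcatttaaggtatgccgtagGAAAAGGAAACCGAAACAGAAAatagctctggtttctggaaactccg
Oas3, chr5:120777700-120777759 (-): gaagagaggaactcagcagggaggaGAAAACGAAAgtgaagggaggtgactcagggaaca
Ifi213, chr1:173599311-173599370 (-): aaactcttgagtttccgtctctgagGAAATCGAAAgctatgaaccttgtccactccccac
Rsad2, chr12:26456538-26456597 (-): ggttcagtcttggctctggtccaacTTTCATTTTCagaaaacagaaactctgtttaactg
Bst2, chr8:71537562-71537627 (-): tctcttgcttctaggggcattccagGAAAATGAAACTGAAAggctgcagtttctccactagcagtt
Cxcl10, chr5:92349068-92349127 (-): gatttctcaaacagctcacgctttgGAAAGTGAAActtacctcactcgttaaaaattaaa
Isg15 had 3 overlapping matches within 78 bases of its start, Ifit1 and Ifit3 had 2 each, and Bst2 had 2 that overlap. Rsad2, Oas3, Ifi213 and Cxcl10 had 1 each, the last of them ending 204 bases before the start. A match is a run of letters and not a measured binding site.

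Over pooled cells, the summed level of the 39 genes was highest in macrophage-like cells among the named classes. It stood at 2842 CPM there (interval 2826 to 2858, 5838 cells), at 2183 CPM in mesothelial-like cells, the lining of the body cavities, and at 1873 CPM in fibroblast-like cells (8591 cells). Endothelial-like cells followed at 1571 CPM (1095 cells). At the low end were mural-like cells, which are smooth muscle and pericytes (611.1 CPM, 1872 cells), B-like cells (639.8 CPM) and epithelial-like cells (475.2 CPM). T-like cells stood at 1050 CPM. A dendritic-like cluster, number 13, scored highest for type 2 dendritic markers but had none of them, and 2 migratory dendritic markers (Ccl22 and Ccr7), among its 10 leading genes; it stood at 1330 CPM. Unnamed cluster 12, described below, stood at 2853 CPM, and mesothelial-like cells lay slightly above macrophage-like cells in suffix 7 (2456 against 2448 CPM).

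Over the 8 suffixes, macrophage-like cells had a lowest value of 2076 CPM, a median of 2837 CPM and a highest of 3922 CPM. Fibroblast-like cells had 1375, 1862 and 2596 CPM, so the 2 ranges overlapped, but the order was the same in each suffix: macrophage-like over fibroblast-like ranged from 1.463 to 1.736. Against endothelial-like cells that ratio ranged from 1.467 to 2.509, and against mural-like cells from 4.04 to 5.698. Macrophage-like cells were above the 3 other classes in both capture sets, but fibroblast-like cells were below endothelial-like cells in suffixes 6, 7 and 8 (1378, 1410 and 1375 against 1404, 1613 and 1415 CPM). The log2 ratio over fibroblast-like cells was 0.65 within suffixes 1 to 4 and 0.71 within suffixes 5 to 8, beside 0.60 pooled. Over endothelial-like cells the values were 1.09, 0.69 and 0.86. The levels themselves differed between the sets: macrophage-like cells stood at 3077 to 3922 CPM in suffixes 1 to 4 and at 2076 to 2597 CPM in suffixes 5 to 8. All of suffixes 1 to 4 lay above all of suffixes 5 to 8 for 14 of 37 members in macrophage-like cells (6.36% of all genes), 20 of 26 in fibroblast-like cells (18.6%) and 5 of 24 in endothelial-like cells (3.18%). All lay below for 0 members, where 7.05% of all genes did in macrophage-like, 7.05% in fibroblast-like and 4.07% in endothelial-like cells.

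**Figure D1:**
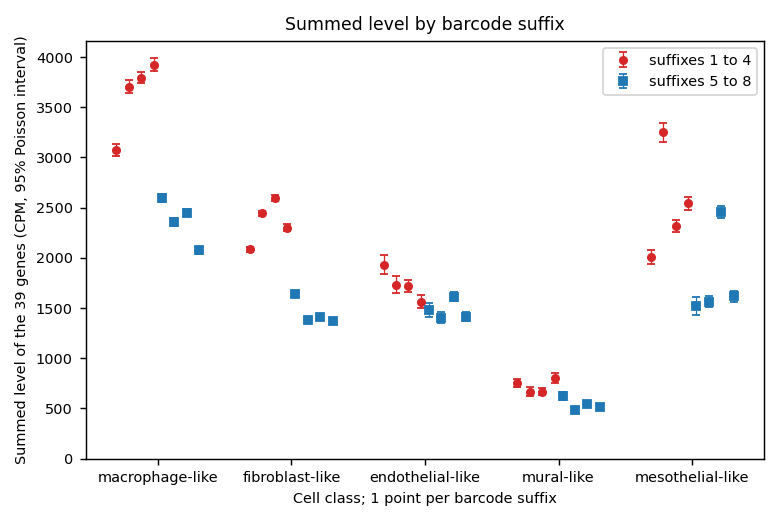
Summed level of the 39 genes in CPM (vertical axis) in 5 cell classes, 1 point per barcode suffix with its 95% Poisson interval; circles are suffixes 1 to 4 and squares suffixes 5 to 8. Mural-like cells lie lowest in every suffix, and in macrophage-like and fibroblast-like cells all of suffixes 1 to 4 lie above all of suffixes 5 to 8.

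A cell was called high when the 39 genes held at least 20 of every 10000 of its UMIs. By this cut 2555 of 5838 macrophage-like cells were high (43.8%, interval 42.5% to 45.1%), as were 434 of 1010 mesothelial-like cells (43.0%), 336 of 1095 endothelial-like cells (30.7%) and 2357 of 8591 fibroblast-like cells (27.4%). Only 71 of 1872 mural-like cells (3.79%) and 3 of 343 epithelial-like cells (0.875%) were high. When each cell was thinned to 2000 UMIs, the shares became 50.4% in macrophage-like, 52.2% in mesothelial-like, 37.6% in endothelial-like, 36.0% in fibroblast-like and 6.93% in mural-like cells. The thinned intervals of macrophage-like (49.1% to 51.7%) and mesothelial-like cells (49.0% to 55.4%) overlapped, as did those of endothelial-like and fibroblast-like cells. Cells too shallow to thin numbered 158 of the macrophage-like, 133 of the endothelial-like and 189 of the fibroblast-like class.

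The cut marks the upper range of a continuous score and does not define a type of cell. High cells were unevenly spread over the clusters of some classes, with 15.8% in fibroblast-like cluster 1 and 46.6% in cluster 6. Among macrophage-like cells the score had a median of 17.5 per 10000, a 90th percentile of 58.2 and a 99th percentile of 148.4, and 1059 cells (18.1%) lay between 16 and 24. The tenth of macrophage-like cells with the highest score held 40.7% of the class's UMIs of the 39 genes, against 30.3% in mesothelial-like cells. Mesothelial-like cells thus had a similar median (17.8) and a lower 99th percentile (81.5). A macrophage-like cell had UMIs of a median of 7 of the genes and a mesothelial-like cell, at nearly double the depth (median 13703.5 UMIs against 7010.5), of 12.

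**Figure D2:**
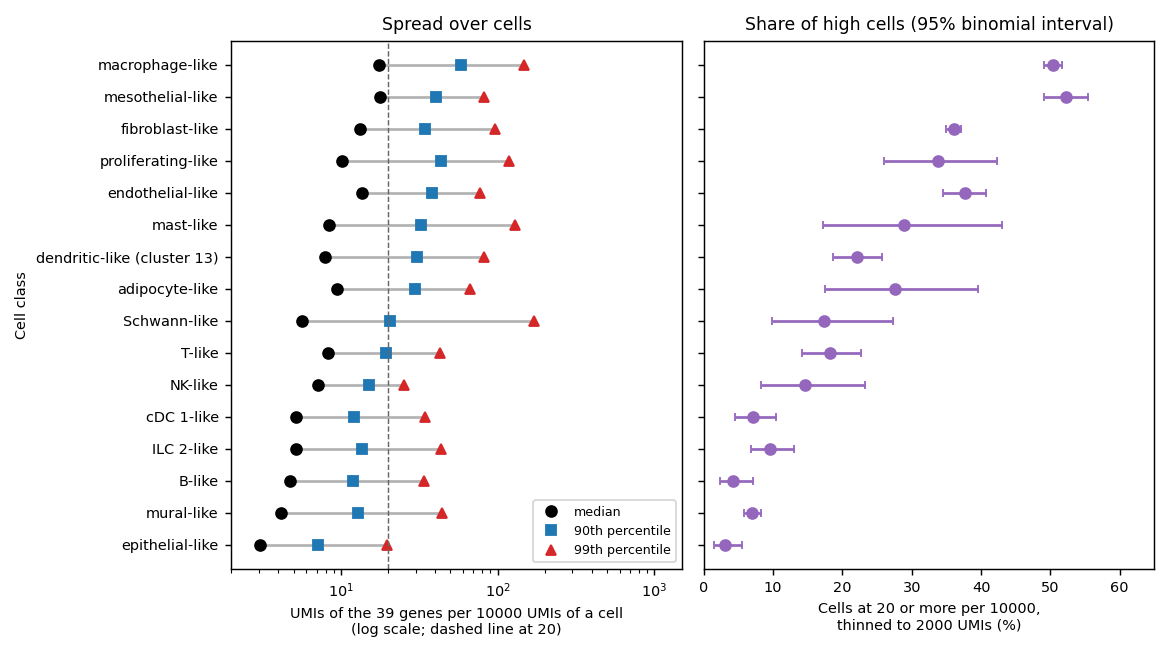
Left, median, 90th and 99th percentile over cells of the UMIs of the 39 genes per 10000 UMIs of a cell (log axis), with the cut of 20 dashed; right, the percentage of cells at or above the cut after thinning to 2000 UMIs, with exact 95% binomial intervals. Macrophage-like and mesothelial-like cells have similar medians and shares, while the 99th percentile is 148.4 in macrophage-like and 81.5 in mesothelial-like cells.

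Gene by gene, the class with the highest level was macrophage-like for 15 of the 39 genes and mesothelial-like for 8. Endothelial-like, T-like and type 1 dendritic-like cells led for 3 each. At 10 CPM or more, 37 of the genes were found in macrophage-like cells, 30 in mesothelial-like, 26 in fibroblast-like, 24 in endothelial-like and 12 in mural-like cells. In all 16 classes of 50 cells or more, 9 genes reached that level. No share over all genes is set beside these counts, so they are not read as a trait of the members.

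**Figure D3:**
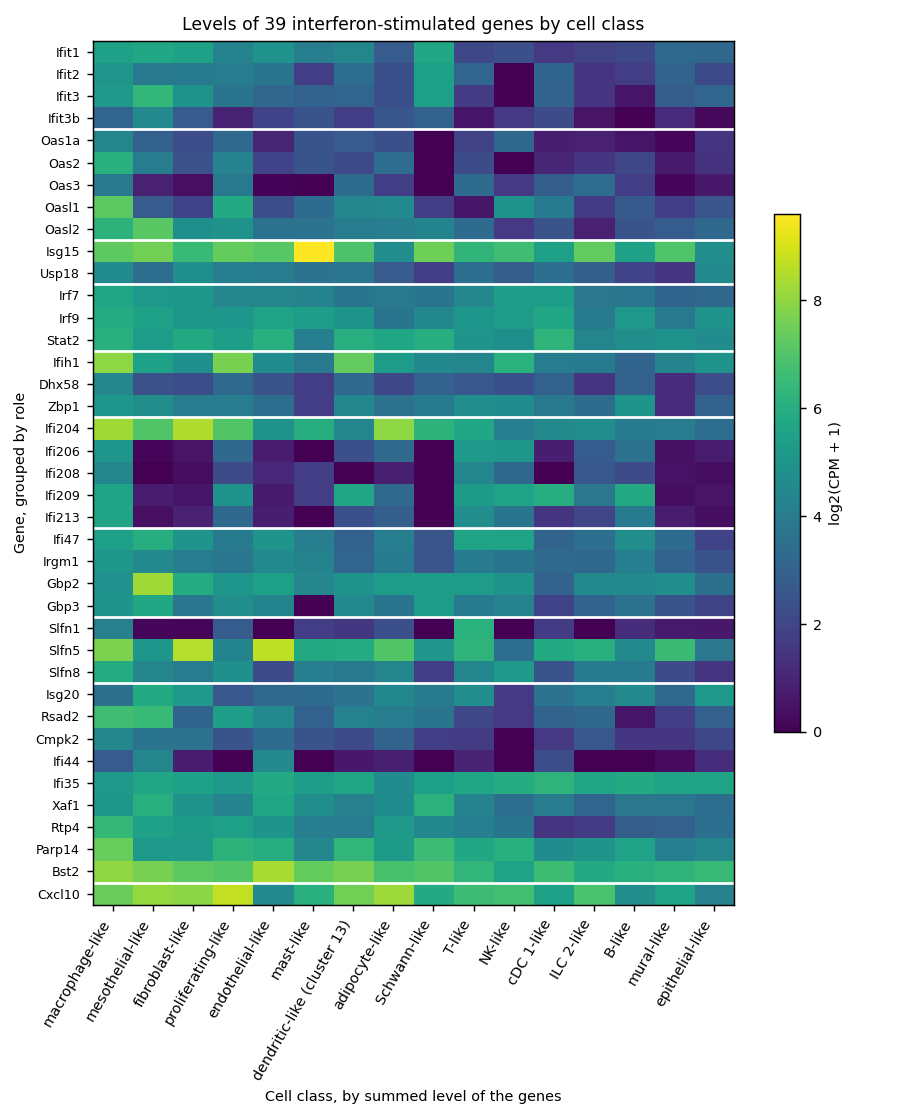
Level of each of the 39 genes (rows, grouped by role) in 16 cell classes (columns, in order of the summed level), as log2(CPM + 1). The rows of Ifi206, Ifi208, Ifi209 and Ifi213 are dark in mesothelial-like, fibroblast-like, endothelial-like and mural-like cells, whereas Ifi204 is bright in fibroblast-like cells, and Isg15 and Bst2 are bright in most classes.

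Macrophage-like cells were then compared with fibroblast-like, endothelial-like and mural-like cells, calling a gene different at 2-fold where either class had 10 CPM. Against fibroblast-like cells, 20 of 37 members were higher in macrophage-like cells, where 23.4% of all genes were, and 2 were higher in fibroblast-like cells, where 22.8% of all genes were. Against endothelial-like cells the counts were 23 of 38 (18.6% of all genes) and 1 (24.3%), and against mural-like cells 33 of 37 (22.8%) and 0 (27.9%). The median log2 ratio of the members was 1.08, 1.43 and 3.47 in the 3 comparisons, beside -0.01, -0.25 and -0.16 over all genes tested. These comparisons share the macrophage-like cells. Moreover, 37 members reached 10 CPM in macrophage-like cells, but only 26 in fibroblast-like, 24 in endothelial-like and 12 in mural-like cells. Members under 10 CPM in the other class were tested only because of their macrophage-like level. Such members could not be called higher in the other class. The shares over all genes come from the same rule. The members 2-fold higher in macrophage-like cells in all 3 numbered 18: Ifit2, Oas1a, Oas2, Oas3, Oasl1, Oasl2, Ifih1, Dhx58, Zbp1, Ifi206, Ifi208, Ifi209, Ifi213, Slfn1, Slfn8, Rsad2, Rtp4 and Parp14.

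**Figure D4:**
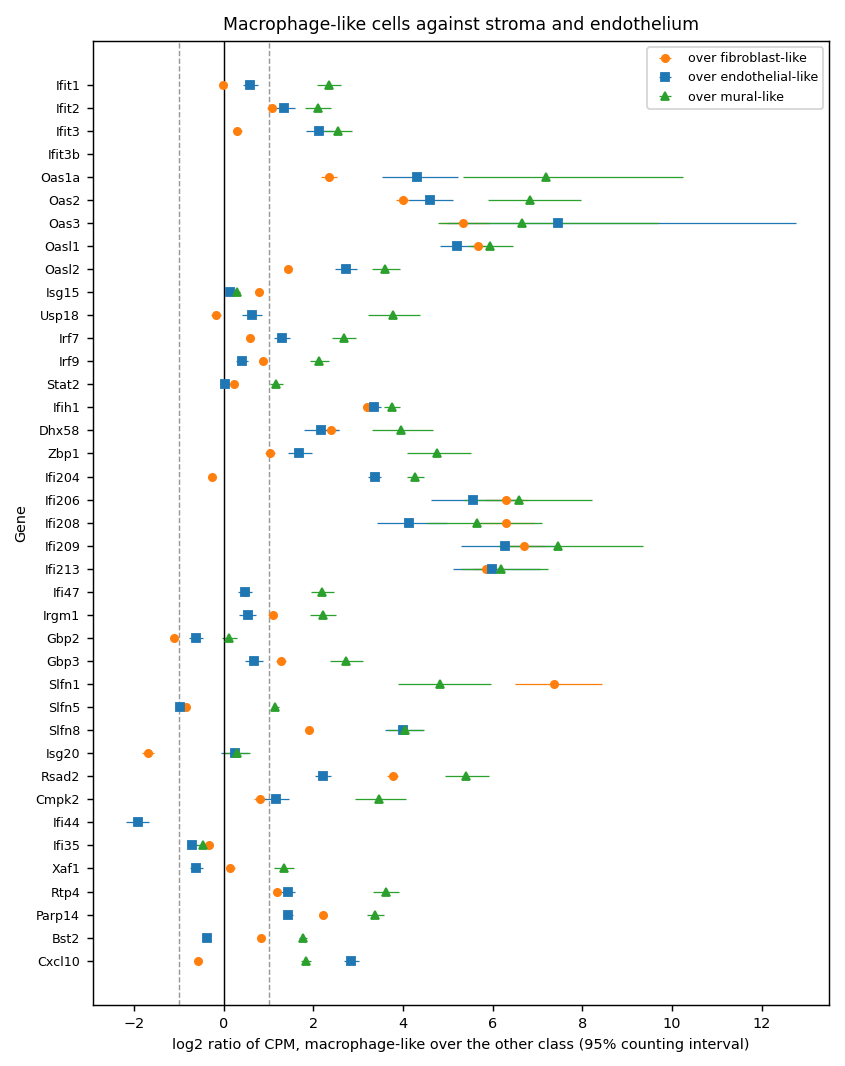
log2 ratio of CPM in macrophage-like cells over fibroblast-like (circles), endothelial-like (squares) and mural-like cells (triangles) for members at 10 CPM or more in either class, with 95% counting intervals and dashed lines at 2-fold; Ifit3b was under 10 CPM in these classes and Slfn1 had no UMI in endothelial-like cells. OAS genes and 4 of 5 PYHIN genes lie far to the right in all 3, whereas Gbp2, Isg20, Slfn5 and Ifi35 lie at or left of 0 against fibroblast-like or endothelial-like cells or both.

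The 5 OAS family genes were 2-fold higher in macrophage-like cells in all 3 comparisons. OAS enzymes make a short oligoadenylate messenger when they meet double-stranded RNA, which turns on the ribonuclease RNase L, and mouse Oasl1 lacks that activity. Oasl1 stood at 146.4 CPM in macrophage-like cells and at 2.86 CPM in fibroblast-like cells, a log2 ratio of 5.68. Over suffixes Oasl1 ran from 51.0 to 227.7 CPM (median 171.1) in macrophage-like and from 1.29 to 5.29 CPM in fibroblast-like cells, with no overlap. Oas2 varied little over suffixes, at 63.0 to 75.5 CPM in macrophage-like cells (median 69.1), and reached at most 9.34 CPM in any suffix of fibroblast-like cells and 5.13 CPM of endothelial-like cells. Oas1a (19.5 CPM) and Oas3 (13.4 CPM) were low, with log2 ratios to fibroblast-like cells of 2.35 and 5.34. Oasl2 differed from its family: it peaked at 140.3 CPM in mesothelial-like cells, beside 73.1 CPM in macrophage-like and 26.8 CPM in fibroblast-like cells. Suffixes of Oasl2 ran from 58.9 to 101.3 CPM (median 68.8) in macrophage-like and from 10.5 to 53.0 CPM (median 23.2) in fibroblast-like cells, and did not overlap.

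The RNA and DNA sensors were also 2-fold higher in macrophage-like cells in all 3 comparisons. Ifih1 encodes MDA5, which binds long double-stranded RNA in the cytoplasm, and its level was 251.8 CPM in macrophage-like cells against 27.4, 24.6 and 18.7 CPM in fibroblast-like, endothelial-like and mural-like cells. By suffix, Ifih1 spanned 122.3 to 369.4 CPM in macrophage-like cells (median 263.4), above the highest fibroblast-like suffix of 43.0 CPM. Dhx58, which encodes the related protein LGP2, had 20.7 CPM in macrophage-like cells and under 5 in the 3 other classes. Zbp1, a sensor of Z-form nucleic acid, had 32.4 CPM in macrophage-like cells and 30.4 CPM in B-like cells, and its ratio to fibroblast-like cells lay near the threshold (log2 1.03).

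The PYHIN genes, whose products bind DNA, split into a group found in white blood cells and Ifi204. Ifi206, Ifi208, Ifi209 and Ifi213 stood at 20.1 to 48.4 CPM in macrophage-like cells and under 1.2 CPM in fibroblast-like, endothelial-like and mural-like cells, with log2 ratios to fibroblast-like cells of 5.86 to 6.71. T-like cells carried them too, at 20.3 to 36.9 CPM. Ifi204 instead had its highest level in fibroblast-like cells, at 356.3 CPM, beside 298.2 CPM in macrophage-like and 29.0 CPM in endothelial-like cells. Suffix values of Ifi204 overlapped between fibroblast-like (296.9 to 424.7 CPM, median 357.9) and macrophage-like cells (242.4 to 397.2 CPM, median 286.9), and fibroblast-like cells were higher in 6 of 8. These genes lie close together on chromosome 1 of GRCm38, from base 173468485 (start of Ifi206) to base 173766943 (end of Ifi204). They resemble one another, so reads can be shared between copies and single values are uncertain. The same holds for Ifit3 with Ifit3b and for members of the Oas1, Slfn and Gbp clusters.

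The IFIT genes, whose products bind foreign RNA at the ribosome, gave different ratios of macrophage-like to fibroblast-like cells in the 2 capture sets. Pooled, Ifit1 had 44.1 CPM in macrophage-like cells and 44.2 CPM in fibroblast-like cells, a ratio of 0.997 (interval 0.944 to 1.05). In suffixes 1 to 4 it stood at 48.8, 90.1, 52.1 and 60.9 CPM in macrophage-like and at 44.8, 99.4, 101.6 and 53.8 CPM in fibroblast-like cells. In suffixes 5 to 8 the values were 43.6, 36.7, 28.9 and 25.5 CPM against 19.3, 16.4, 15.8 and 21.4 CPM, so macrophage-like cells were higher in all 4 of these suffixes. Ifit2 was 2.11-fold higher in macrophage-like cells, close to the threshold, and had its larger ratios in suffixes 1 to 4 instead. It stood there at 38.1, 68.9, 44.95 and 62.6 CPM against 13.9, 13.6, 18.2 and 18.7 CPM in fibroblast-like cells. In suffixes 5 to 8 Ifit2 had 33.7, 15.3, 13.7 and 11.05 CPM against 16.2, 13.45, 10.8 and 16.1 CPM. Fibroblast-like cells were thus higher in suffix 8. Ifit3 was 1.24-fold higher in macrophage-like cells when pooled. In suffixes 5 to 8 it stood at 34.6, 24.2, 22.2 and 23.3 CPM against 13.7, 11.2, 6.40 and 9.16 CPM. Mesothelial-like cells had the highest Ifit1 (53.7 CPM), Ifit3 (81.9 CPM) and Ifit3b (22.0 CPM). At least 2 of the 4 IFIT genes were found in 32.4% of mesothelial-like, 8.91% of macrophage-like, 8.13% of fibroblast-like and 1.01% of mural-like cells. After thinning to 2000 UMIs the shares were 5.03%, 3.33%, 1.68% and 0.338%, in the same order of classes. The intervals of macrophage-like (8.19% to 9.67%) and fibroblast-like cells (7.56% to 8.72%) overlapped before thinning and not after it (2.88% to 3.83% against 1.41% to 1.98%).

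Isg15 was above 10 CPM in all 16 classes. It encodes a ubiquitin-like protein that is joined to other proteins and removed by the product of Usp18, and its level was 150.4 CPM in macrophage-like, 136.9 CPM in endothelial-like, 122.4 CPM in mural-like and 87.6 CPM in fibroblast-like cells, all within 2-fold of macrophage-like cells. Mast-like cells had the highest level, 781.7 CPM (interval 700.4 to 870.0), from 336 UMIs in 254 shallow cells with a median of 1228.5 UMIs. By suffix, Isg15 in mast-like cells ranged from 247.3 to 1718 CPM. In macrophage-like cells it ranged from 64.5 to 274.0 CPM (median 148.6) and in fibroblast-like cells from 40.4 to 189.1 CPM (median 71.4). Endothelial-like suffixes lay between 117.6 and 271.7 CPM (median 127.8) and mural-like suffixes between 79.7 and 168.9 CPM (median 125.2), so Isg15 overlapped between all 4 classes. Usp18 followed another order, with 26.5 CPM in fibroblast-like, 23.6 in macrophage-like, 15.2 in endothelial-like and 1.73 CPM in mural-like cells.

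The transcription factors of the response were within 2-fold of fibroblast-like cells. Stat2 was near equal in macrophage-like (66.9 CPM), endothelial-like (65.4 CPM) and fibroblast-like cells (56.6 CPM), and lower in mural-like cells (29.7 CPM). Suffixes of Stat2 overlapped between the first 3 classes, at 61.9 to 75.5 CPM (median 65.9), 47.9 to 89.0 CPM (median 65.1) and 35.2 to 79.2 CPM (median 56.1). Irf9, its partner in DNA binding, stood at 59.97, 44.99, 32.8 and 13.7 CPM in the same order of classes. The macrophage-like suffixes of Irf9 (52.7 to 66.4 CPM, median 62.0) lay above the fibroblast-like ones (23.4 to 44.6 CPM, median 32.4) and overlapped the endothelial-like ones (38.1 to 60.5 CPM, median 44.6). Irf7, which amplifies the production of type I interferon, was 1.30 log2 units higher in macrophage-like than in endothelial-like cells and 0.59 higher than in fibroblast-like cells.

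Several members ran the other way. Slfn5, a Schlafen gene, was higher in endothelial-like (408.8 CPM) and fibroblast-like cells (370.9 CPM) than in macrophage-like cells (208.6 CPM), at log2 ratios of -0.97 and -0.83 that fell short of 2-fold, and in all 8 suffixes. The range of Slfn5 over suffixes was 177.6 to 282.5 CPM in macrophage-like and 328.2 to 506.4 CPM in endothelial-like cells, without overlap. Gbp2, a GTPase that attacks the membranes around intracellular microbes, stood at 27.8 CPM in macrophage-like, 59.8 CPM in fibroblast-like and 300.2 CPM in mesothelial-like cells. Mesothelial-like suffixes of Gbp2 (192.6 to 385.6 CPM, median 285.0) lay above those of the 4 compared classes, while macrophage-like (18.5 to 50.4 CPM, median 23.6) and fibroblast-like suffixes (34.6 to 87.6 CPM, median 61.5) overlapped. Isg20, an RNA exonuclease, was at 10.8 CPM in macrophage-like cells and 34.8 CPM in fibroblast-like cells. Ifi44 was the only member 2-fold higher in endothelial-like cells, at 22.0 against 5.82 CPM. Bst2, which encodes tetherin, a protein that holds budding virus at the cell surface, was also highest in endothelial-like cells (332.8 CPM, suffixes 277.8 to 371.1), beside 258.5 CPM in macrophage-like cells (suffixes 175.2 to 433.2), and was higher in endothelial-like cells in 7 of 8 suffixes.

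The other Schlafen genes were highest in T-like (Slfn1) or macrophage-like cells (Slfn8). Slfn1 reached 10 CPM in 2 of 16 classes and Slfn8 in 11. Slfn1 peaked in T-like cells at 69.2 CPM, with 17.1 CPM in macrophage-like cells. No Slfn1 UMI was found in endothelial-like cells, where 3 UMIs would give 0.228 CPM, so the macrophage-like level was at least 74.8-fold higher. Slfn8 stood at 59.6 CPM in macrophage-like, 15.9 CPM in fibroblast-like and 3.72 CPM in endothelial-like cells. Its macrophage-like suffixes (49.0 to 77.2 CPM, median 58.9) lay above the fibroblast-like ones (10.3 to 25.7 CPM, median 14.0). Of the remaining GTPases, Irgm1 and Gbp3 were 2.13-fold and 2.44-fold higher in macrophage-like than in fibroblast-like cells, in 8 of 8 suffixes each, and Ifi47 was 1.38-fold higher. Against endothelial-like cells the 3 genes were within 2-fold: Ifi47 had 42.3 CPM in macrophage-like and 30.5 CPM in endothelial-like cells, Irgm1 33.2 and 23.0 CPM, and Gbp3 30.5 and 19.2 CPM.

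Among the other effectors, Rsad2, Rtp4 and Parp14 were higher in macrophage-like cells than in the 3 compared classes. Rsad2 encodes viperin, which makes a chain-terminating nucleotide, and stood at 101.4 CPM in macrophage-like, 87.6 CPM in mesothelial-like, 22.0 CPM in endothelial-like and 7.46 CPM in fibroblast-like cells. In macrophage-like cells Rsad2 ranged over suffixes from 55.3 to 195.5 CPM with a median of 102.4, above the highest endothelial-like suffix of 45.6 CPM. Rsad2 was not particular to macrophage-like cells: in suffix 7 mesothelial-like cells had 143.7 CPM and macrophage-like cells 65.03 CPM. Endothelial-like cluster 21, described below, also had more Rsad2 than pooled macrophage-like cells, at 115.9 CPM. Its Parp14 (97.7 CPM) and Rtp4 (70.0 CPM) were below the macrophage-like levels. Parp14, an ADP-ribosyltransferase, stood at 166.8 CPM against 36.2 CPM in fibroblast-like and 61.7 CPM in endothelial-like cells, and Rtp4 at 83.4 against 36.8 and 30.8 CPM. Parp14 did not overlap between macrophage-like suffixes (140.5 to 201.5 CPM, median 173.8) and endothelial-like ones (43.4 to 84.4 CPM, median 67.0). Rtp4 did overlap between macrophage-like (66.5 to 109.0 CPM, median 82.3) and fibroblast-like suffixes (16.4 to 75.2 CPM, median 31.1). Cmpk2, the neighbour of Rsad2 on chromosome 12, reached 20.8 CPM in macrophage-like cells. Ifi35 and Xaf1 were spread broadly: Ifi35 had 35.1, 44.2, 57.0 and 48.2 CPM in macrophage-like, fibroblast-like, endothelial-like and mural-like cells. Xaf1 had 32.8 CPM in macrophage-like and 29.6 CPM in fibroblast-like cells, and a log2 ratio of -0.61 to endothelial-like cells. Endothelial-like suffixes ran from 45.1 to 65.3 CPM for Ifi35 (median 59.0) and from 38.8 to 65.5 CPM for Xaf1 (median 50.6). Macrophage-like suffixes had 29.6 to 45.4 CPM of Ifi35 (median 33.5) and 28.6 to 43.9 CPM of Xaf1 (median 31.3), so both genes overlapped at the edges.

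Cxcl10, the chemokine that draws T cells through CXCR3, was led by fibroblast-like cells among the 4 compared classes. It stood at 248.0 CPM in fibroblast-like, 167.7 CPM in macrophage-like, 47.0 CPM in mural-like and 23.4 CPM in endothelial-like cells. Cxcl10 was found in 29.1% of fibroblast-like and 26.9% of macrophage-like cells, and over suffixes it ran from 58.5 to 299.5 CPM in macrophage-like cells (median 161.6) and from 143.1 to 389.2 CPM in fibroblast-like cells (median 262.8).

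The macrophage-like clusters differed in which members they carried. Cluster 0, led by Cd209b and Cd209d, cluster 2, led by Ccl3 and Ccl4, and cluster 15, led by Mucl1 and Klra2 and with the next-highest score for monocyte markers, had summed levels of 2694, 3069 and 3215 CPM. In each of these clusters 8 macrophage markers were 2-fold up, but none was among the 10 leading genes. Those of cluster 0 held 2 genes listed as dendritic markers, Clec10a and Siglech, and those of cluster 15 the monocyte marker Chil3. Cxcl10 stood at 64.8, 305.2 and 487.5 CPM in clusters 0, 2 and 15, and Ifih1 at 177.8, 329.5 and 544.3 CPM. Oas2 ran in the opposite order, at 77.6, 58.9 and 30.6 CPM, as did Ifi208 at 23.8, 16.7 and 4.45 CPM and Oasl2 at 81.1, 62.7 and 47.4 CPM. Rsad2 (98.2, 109.9 and 98.9 CPM) and Parp14 (162.8, 172.1 and 179.0 CPM) were nearly level. Cluster 12, led by Lyz1 and Dcstamp, stayed unnamed because only 2 macrophage markers were 2-fold up. It extended the first pattern, with Cxcl10 at 693.2 CPM and Ifih1 at 777.4 CPM, and had Ifit2 at 3.96 and Ifi204 at 47.5 CPM, beside 32.3 and 304.2 CPM in cluster 0.

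Endothelial-like clusters differed by more than 2-fold. Cluster 21, led by Rbp7, Gpihbp1 and Flt1, genes known from capillaries, had 2794 CPM (331 cells) and 62.5% high cells. Macrophage-like cells as a class had 2842 CPM and 43.8% high cells. Cluster 14, led by Nts and by Prox1, the lymphatic transcription factor, had 1252 CPM (564 cells; its scores for blood and lymphatic endothelial markers were close, 2.14 and 1.95), cluster 34, led by the lymphatic genes Ccl21a and Reln, 1151 CPM (72 cells), and cluster 30, led by Selp, 1849 CPM (128 cells). The ratio of cluster 21 to cluster 14 was 2.23 (interval 2.16 to 2.30) and above 1 in 8 of 8 suffixes. These clusters were picked for comparison after their summed levels were seen. Of 29 members at 10 CPM or more in either, 17 were 2-fold higher in cluster 21, where 16.5% of all genes were, and 1, Zbp1, was 2-fold higher in cluster 14, where 8.65% were. In cluster 21 the level of Rsad2 was 115.9 CPM, beside 1.07 CPM in cluster 14; Slfn5 had 758.2 and 241.0 CPM, and Ifit2 40.5 and 4.63 CPM. Isg15 (238.2 and 124.4 CPM) and Bst2 (467.7 and 329.6 CPM) stayed under 2-fold. Cluster 21 was also the shallower of the 2, with a median of 4017 UMIs per cell against 8158.5, and the part of depth in this difference was not tested. Markers of other classes moved with it. The 7 pericyte markers were all higher in cluster 21, at a summed 939.1 CPM (334.6 to 1298 over suffixes) against 12.9 CPM in cluster 14 (7.18 to 20.6), beside 3722 CPM in pericyte-like cells, and Rgs5 was found in 40.5% against 0.355% of cells. All 7 smooth muscle markers were higher too (801.3 against 33.5 CPM), as were all 6 adipocyte markers (277.3 against 5.46 CPM). The same held for all 8 macrophage markers (485.0 against 164.6 CPM) and all 7 fibroblast markers (3977 against 1202 CPM). In cells with no UMI of a pericyte marker the summed level of the 39 genes was 2624 CPM in cluster 21 (168 cells, median 2766.5 UMIs). In cluster 14 it was 1216 CPM (503 cells, median 7663 UMIs). Lacking such a UMI in cells this shallow does not show that pericyte RNA was absent. The part of pericyte RNA and of the other markers in the difference was not tested.

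Mural-like clusters differed as well, with a caution on the smallest. The smooth muscle-like clusters 5, 18 and 20 had summed levels of 481.6, 373.9 and 1057 CPM. The pericyte-like cluster 33, led by Rgs5, had 2122 CPM over 93 cells, of which 4 cells of suffix 4 held 299 of 1139 UMIs of the 39 genes. Without suffix 4 the level was 1622 CPM (interval 1514 to 1736). Cxcl10 in cluster 33 stood at 432.2 CPM with and 226.0 CPM without suffix 4, and Ifit1 at 128.5 and 23.2 CPM, so the Ifit1 level rested on those 4 cells. Isg15 moved less, from 538.4 to 475.1 CPM. In cluster 5 the levels were 75.0 CPM (Isg15), 32.4 CPM (Cxcl10) and 2.39 CPM (Ifit1). Fibroblast-like clusters ranged from 1392 to 2595 CPM.

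The ligands and receptors of the pathway were read from a list of 92 other genes, of which 89 were in the table. No interferon ligand reached 10 CPM in macrophage-like, fibroblast-like, endothelial-like or mural-like cells. Ifnb1 had 119 UMIs in macrophage-like cells (2.82 CPM), 22 in dendritic-like cluster 13 (4.33 CPM) and 0 in endothelial-like and mural-like cells. Ifng, the gene of interferon gamma, stood at 116.4 CPM in NK-like and 53.5 CPM in T-like cells, and at 0.02 CPM in macrophage-like cells. Its UMIs were thus largely in lymphocyte-like classes. The type I receptor genes were within 2-fold of macrophage-like cells in fibroblast-like and endothelial-like cells and over 2-fold lower in mural-like cells: Ifnar1 had 43.3, 23.0, 34.0 and 16.8 CPM and Ifnar2 177.0, 157.3, 213.2 and 74.0 CPM in macrophage-like, fibroblast-like, endothelial-like and mural-like cells.

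Among sensors and adaptors upstream of interferon, 5 of the 10 tested were 2-fold higher in macrophage-like than in fibroblast-like cells and none was lower: Irf5 (118.8 against 3.85 CPM), Tlr7 (126.7 against 0.719 CPM), Cgas, Tbk1 and Ticam1. Of 8 signal and feedback genes, 2 were higher in macrophage-like and 3 in fibroblast-like cells. Socs1 had 10.3 CPM in macrophage-like cells and 232.7 CPM in fibroblast-like cells, and Socs3, which restrains cytokine receptors that signal through STAT3, at 198.1 and 1034 CPM. Irf1 stood at 347.2 and 1241 CPM. Over the whole list, 29 of 68 tested genes were 2-fold higher in macrophage-like and 8 in fibroblast-like cells, with a median log2 ratio of 0.79, where 23.4% and 22.8% of all genes were, with a median of -0.01. Against endothelial-like cells the counts were 23 and 14 of 72, with a median of 0.34, where 18.6% and 24.3% of all genes were, with a median of -0.25. The genes higher in endothelial-like cells included Iigp1 (290.7 against 58.9 CPM), Gbp4 (27.1 against 1.61 CPM) and Tnfsf10 (24.7 against 3.22 CPM).

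High macrophage-like cells were last compared with the other cells of their class, leaving out the 39 genes that set the cut. A gene entered only by reaching 20 CPM in the high cells. Genes under that level there were left out whatever their level in the other cells. This filter favours genes higher in the high cells, and the share over all genes was taken under it too. Of 5825 genes at 20 CPM or more in the high cells, 44 were 2-fold higher there (0.755%). Of the 61 pathway genes among them, 21 were 2-fold higher and 50 were higher at all, with a median log2 ratio of 0.53 beside -0.03 over all genes, and 14 of the top 20 genes were from the pathway list. Iigp1, an immunity-related GTPase, stood at 110.0 against 14.7 CPM, the chemokine gene Ccl5 at 31.0 against 4.50 CPM, and Rnf213, a large ubiquitin ligase, at 330.0 against 73.7 CPM. Each was higher in the high cells in all 8 suffixes. Outside the list, Plac8, a monocyte marker, stood at 77.9 against 18.5 CPM and Gvin1 at 49.7 against 16.02 CPM. The summed monocyte markers did not follow, with a median of 32.6 per 10000 UMIs in high and 35.4 in other cells, and the macrophage markers stood at 139.5 and 138.8. High cells were slightly deeper (median 7447 against 6749 UMIs).

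High fibroblast-like cells shared part of this pattern. Under the same filter, 39 of 6044 genes were 2-fold higher there (0.645%), 23 of 55 pathway genes among them. The median log2 ratio was 0.80 over the pathway genes and -0.04 over all genes. Cxcl9, like Cxcl10 a ligand of CXCR3, led with 66.0 against 3.47 CPM, followed in the list by Iigp1 (298.6 against 37.7 CPM), Gbp6 (26.4 against 5.20 CPM) and Gbp5 (105.2 against 25.8 CPM). Rnf213 (148.2 against 39.1 CPM) was higher as in macrophage-like cells. Each of these genes was higher in the high cells in all 8 suffixes. Macrophage markers had a median of 1.09 per 10000 UMIs in high and 1.13 in other fibroblast-like cells. The summed monocyte markers were higher in the high cells (5.75 against 3.83) and fibroblast markers lower (245.1 against 283.5). The monocyte marker Plac8 alone stood at 587.0 against 213.6 CPM, so the sum need not mean a rise of the other monocyte markers. The part of these markers in the result was not tested. Fibroblast-like clusters also differed in their share of high cells, from 15.8% to 46.6%. Over suffixes that share ran from 15.87% to 42.25%, with all of suffixes 1 to 4 above all of suffixes 5 to 8. The part of cluster and of capture set in the result was not tested.

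**Figure D5:**
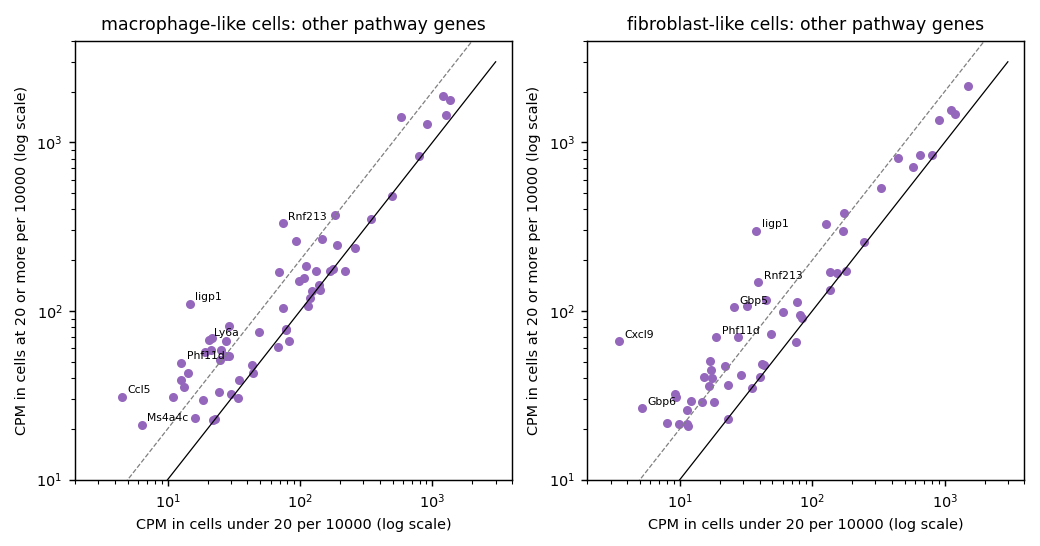
Level of each pathway gene outside the 39 in cells at or above the cut (vertical, CPM, log axis) against the cells under it (horizontal, CPM, log axis), in macrophage-like (left) and fibroblast-like cells (right); the solid line is equality and the dashed line 2-fold. Most points lie above equality, 50 of 61 on the left and 50 of 55 on the right, and the 6 genes with the highest ratio are named. The share of all genes above equality was not counted. The median log2 ratio of the pathway genes was 0.53 on the left and 0.80 on the right, beside -0.03 and -0.04 over all genes under the same filter. Only genes at 20 CPM or more in the cells at or above the cut are shown.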

How the data were processed

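All samples share 1 matrix of raw UMI counts (unit: counts) that the authors deposited; its header gives Cell Ranger 7.1.0 as the program that wrote it. Seurat 4.3.0.1 and the mm10 build also stand in the submitters' processing notes, but what Seurat was used for and which annotation was counted are not given in the sources used here. Barcodes with at least 500 UMIs, 300 genes and under 15% mitochondrial UMIs were kept (380 removed), and 719 doublets (3.04%) called per capture set with Scrublet's method in scanpy 1.11.5 were removed. Clusters (2000 variable genes without members or pathway genes, 30 components, 15 neighbours, Leiden resolution 1.0) were named by marker scores. The naming rule was adjusted after the clusters' marker profiles were seen and before member values were read; 5 clusters with 1479 cells stayed unnamed. Blood and lymphatic endothelial-like clusters were summed, as were smooth muscle-like and pericyte-like ones.

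Counts were summed per class as CPM with exact Poisson intervals; ratios carry exact conditional binomial intervals and shares exact Clopper-Pearson intervals. As a check of the calculation, the comparison rule was run on simulated Poisson counts with 200 genes changed by a known fold. The simulation had no spread between cells or suffixes, so it tells nothing about that spread. Members and lists were chosen with earlier results of these data known. Members at 10 CPM or more in any class were described by role, and those at 50 CPM or more in a compared class also with suffix values, in the classes a comparison is about; other genes are the top of their ranking or examples from the pathway list. Sequences are from RefSeq and positions from GENCODE M21.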

Additional observations from a re-analysis of the deposited data

How the results depend on the processing

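No paired analysis was made, because no label ties a suffix to a named replicate of the study, although each suffix had 1 main tag. Orders within a suffix are descriptions. For the summed level, no ratio of macrophage-like cells to the 3 compared classes changed direction. The order of endothelial-like and fibroblast-like cells did change. The share of high cells was lower in endothelial-like cells in suffixes 1 to 4, without Bst2 and thinned to 1000 UMIs. The endothelial-like level was higher by the mean over cells and in suffixes 5 to 8. Leaving out suffix 4, chosen after seeing the data, took the pericyte-like cluster from 2122 to 1622 CPM. Single members were followed under the alternatives only where they had a 2-fold call (78 calls). Of their 1400 values, 1174 moved by less than their counting interval, 226 moved and 0 reversed. Members without a call could change order between suffixes. Isg15 was higher in macrophage-like than in endothelial-like cells in 4 of 8 suffixes, and Ifit1 than in fibroblast-like cells in 6 of 8. Median scaling shifted endothelial comparisons by -0.14 (log2) and changed no direction. Depth limits members near the 3-UMI floor. Values are given in the order fibroblast-like, endothelial-like, mural-like for log2 module ratios, and with macrophage-like first for shares of high cells. Leaving out each suffix in turn gave ratios of 0.58 to 0.63, 0.80 to 0.91 and 2.18 to 2.25, shares of 41.8% to 46.0%, 25.8% to 29.1%, 29.9% to 31.6% and 3.35% to 4.29%, members higher in macrophage-like cells of 19 to 20, 22 to 23 and 33, and members higher in the other class of 2, 1 to 2 and 0. Suffixes 1 to 4 alone gave ratios 0.65, 1.09 and 2.35, shares 55.3%, 37.9%, 35.2% and 5.41%, and 1 member higher in fibroblast-like cells; suffixes 5 to 8 gave 0.71, 0.69 and 2.17, shares 37.3%, 18.5%, 27.9% and 2.55%, and 2 members higher in endothelial-like cells. The mean over cells gave 0.58, 0.54 and 2.06, and 3 members higher in endothelial-like cells. With all barcodes the mural ratio was 2.03. With doublets kept, ratios were 0.58 (fibroblast-like) and 1.93 (mural-like) and the mural-like share 5.31%. At resolution 2.0 the fibroblast-like ratio was 0.55 and share 29.9%. The per-cell gate gave ratios 0.63 and 2.57 (mural-like), shares of 34.9% (endothelial-like) and 1.74% (mural-like), and 2 members higher in endothelial-like cells. Adding the unnamed clusters nearest to macrophages, chosen after seeing the data, gave 0.58, with 1 member higher in fibroblast-like and 2 in endothelial-like cells. Without Bst2 the ratios were 0.58, 1.06 and 2.27 and shares 38.8%, 23.9% and 22.7% (endothelial-like). Without Slfn5, the member with most UMIs, ratios were 0.81, 1.18 and 2.35, and without 5 members that interferon gamma also induces 0.75, 0.83 and 2.30. At a cut of 10 the shares were 75.4%, 65.9%, 67.0% and 15.5%, at 40 they were 19.2%, 7.38%, 9.22% and 1.12%, thinned to 2000 UMIs 50.4%, 36.0%, 37.6% and 6.93%, and thinned to 1000 UMIs 55.2%, 43.0%, 42.8% and 11.2%. At 1.5-fold, 5 members were higher in endothelial-like cells; at 4-fold, 13 were higher in macrophage-like than in fibroblast-like cells and 0 the other way, and 0 in endothelial-like cells. Among members at 50 CPM or more, 8, 10 and 14 were higher in macrophage-like cells, 1 in fibroblast-like and 0 in endothelial-like cells. For each of these moves the cause was not tested, beyond the fewer genes or cells that some alternatives leave.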

Other observations

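The suffixes fell into separate sets in the summed level of the 39 genes, and no label says what a suffix stands for. In macrophage-like cells suffixes 1 to 4 stood at 3077, 3704, 3797 and 3922 CPM, and suffixes 5 to 8 at 2597, 2359, 2448 and 2076 CPM. In fibroblast-like cells the values were 2085, 2442, 2596 and 2300 CPM, and 1640, 1378, 1410 and 1375 CPM. In mural-like cells they were 753.0, 667.9, 666.4 and 801.4 CPM, and 620.0, 482.5, 541.9 and 513.8 CPM, again without overlap. Endothelial-like cells had 1931, 1733, 1719 and 1563 CPM, and 1479, 1404, 1613 and 1415 CPM, so the sets overlapped there, as they did in mesothelial-like cells.

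Single members differed in how far they followed. In macrophage-like cells 14 of 37 members had all of suffixes 1 to 4 above all of suffixes 5 to 8, among them Isg15, Rsad2, Oasl1 and Bst2, where 6.36% of all genes did, and 0 had the reverse order (7.05%). Isg15 stood at 161.2, 266.8, 221.8 and 274.0 CPM in suffixes 1 to 4 and at 135.9, 114.2, 98.7 and 64.5 CPM in suffixes 5 to 8. Oas2 did not follow, at 64.5, 69.8, 63.4 and 73.9 CPM, and 63.0, 68.8, 69.4 and 75.5 CPM. In fibroblast-like cells 20 of 26 members were apart in this direction (18.6% of all genes) and in endothelial-like cells 5 of 24 (3.18%): Irf7, Zbp1, Gbp2, Ifi44 and Rtp4. Capture library, sex and mouse cannot be told apart here, and none was assigned to a suffix.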
